A study of Mus musculus with 6 samples.

Results

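The 37 genes described here are antiviral interferon-stimulated genes, chosen as a list of names and read from the table of expression estimates for 54146 mouse genes. All 37 were found in that table, with 1 row each. D2A1 cells, a mouse mammary tumor line, were grown as spheroids in Matrigel in DMEM with 10% FBS and received recombinant SLURP1 (rSLURP1, 50 nM) or recombinant GST (rGST, 50 nM) as the control protein, with harvest on day 5 in the study's methods. The labels give the 2 groups no other genotype or treatment, and each has 3 libraries. SLURP1 is a secreted Ly6/uPAR-related protein, and the comparison asks which genes differ in expression when it is added. Both groups come from 1 cell line in culture, and the labels name neither virus nor interferon. Values are TPM, a relative transcript abundance that is corrected for transcript length and scaled to the same total in every library, so read depth is unknown. Between 12390 and 12449 genes reached 1 TPM in the rGST libraries and between 11906 and 11981 in the rSLURP1 libraries. Slurp1 itself was listed at 0 in all 6 libraries, which is no check of the labels because the protein was added from outside.

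Interferon-stimulated genes are switched on when type I interferon binds its receptor, IFNAR1 with IFNAR2. The kinases JAK1 and TYK2 then start a signal that leads a complex of STAT2 and IRF9 to the interferon-stimulated response element in promoters. The products sense viral RNA, degrade RNA, block translation, or hold viruses at membranes, and many cells keep them at a low level without infection.

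The antiviral genes were lower with rSLURP1 almost throughout the list. In 35 of the 37 genes all 3 rSLURP1 libraries lay below all 3 rGST libraries, a separation that was found in 61.7% of all 12301 tested genes. Ifitm1 was separated in the opposite direction, and the libraries of Ifitm2 overlapped. The ratio of mean TPM, rGST over rSLURP1, ranged from 1.24 for Ifitm3 to 57.2 for Ifit3 among the genes called lower, with a median of 6.96. Over all 37 genes it was at least 5 in 20 and at least 10 in 9. Of those 9, Ifit3b, Oas2, Mx2, Ifi44 and the untested Mx1 were under 1 TPM in every rSLURP1 library. The share of all tested genes at these ratios was not counted. In bulk RNA, fewer cells that express a gene and less RNA per cell cannot be told apart.

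The test was limma on log2(TPM + 1), with p-values adjusted by the Benjamini-Hochberg method over the 12301 genes that reached 1 TPM in 3 or more libraries. Of the 36 members that passed this filter, 34 passed the threshold (adjusted p no higher than 0.05) as lower, against 58.5% of all tested genes. Ifitm1 was called higher, against 8.66% of all tested genes, and Ifitm2 was not called. At a fold change of 2 or more on this scale, 30 members were lower, against 7.06% of all tested genes, and with libraries rescaled by the median ratio of their genes 26 were, against 3.74%. The median log2 fold change was -2.01 over the 36 members and -0.33 over all tested genes. Among all tested genes ordered from the lowest log2 fold change, 15 members were in the first 100. The filter passed 7 members (Ifit3b, Oas1g, Oas2, Mx2, Rsad2, Cmpk2 and Ifi44) only through their rGST values, so these had to differ. Of the 27 members at a TPM of 1 or more in all 6 libraries, 25 were called lower in a fit on such genes alone, against 61.3% of all genes in that fit. Without a filter, 35 of all 37 members were called lower, against 29.5%.

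**Figure D1:**
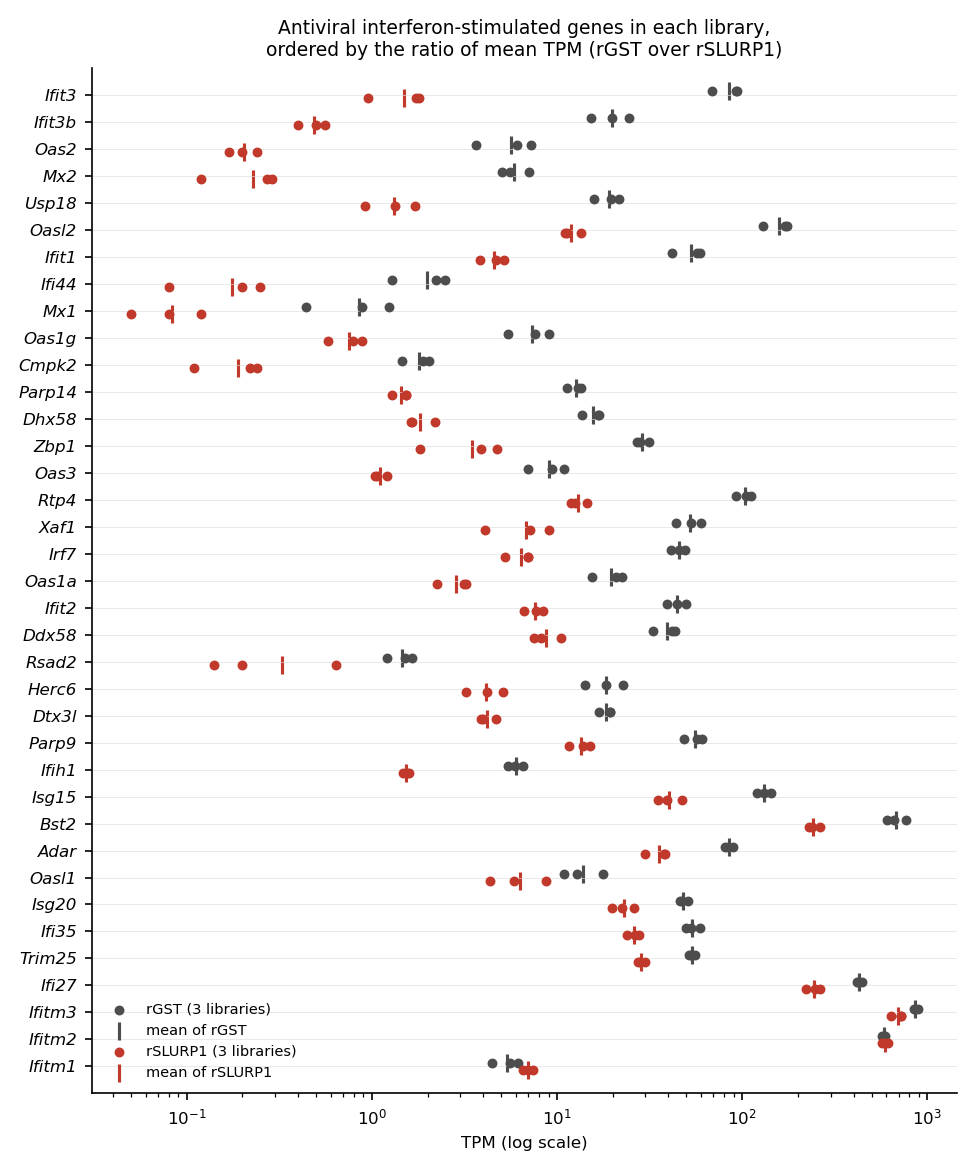
TPM on a log axis for each of the 37 genes, with 1 point per library (grey, 3 rGST libraries; red, 3 rSLURP1 libraries) and a bar at each group mean, ordered by the ratio of mean TPM. The red points lie left of the grey points in 35 genes, the points of Ifitm2 overlap, and Ifitm1 at the bottom has its red points to the right.

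Markers of other cells were read beside these results. Of 9 immune markers, Adgre1, Itgam, Cd3e and Siglech were at 0 in all libraries and the others except Cd68 were at 0.10 TPM or less, so the defining markers of immune cells were at or near 0 in both groups. Cd68, a lysosomal gene, was higher with rSLURP1, and the summed immune markers were 3.61 to 4.12 TPM with rGST and 7.85 to 10.7 TPM with rSLURP1. Endothelial markers summed to 0.31 TPM or less. Of 8 epithelial markers, Krt18 was at 191.1 to 199.4 TPM in all libraries, while Epcam, Krt5 and Krt14 were at 0 and Cdh1 at 0.070 TPM or less, so these 4 defining epithelial markers of the labelled mammary cell were at or near 0. Krt8 was low and called lower, from 1.56 ± 0.140 to 0.697 ± 0.163 TPM (SD, n = 3 each), and Krt7 and Krt19 were at 1.37 TPM or less. With libraries rescaled by the median ratio, Krt8 was no longer called (log2 fold change -0.41, adjusted p = 0.0571 in limma). Krt18 was then called higher (0.38, adjusted p = 9.47e-05 in limma). The 8 epithelial markers summed to 194.1 to 201.4 TPM with rGST and 197.8 to 200.7 TPM with rSLURP1, nearly all of it Krt18. Vim was at 640.3 TPM or more in every library but was called lower, from 1259 ± 78.4 to 664.5 ± 30.3 TPM (SD, n = 3 each). Its log2 fold change was -0.92 as deposited and -0.56 with libraries rescaled by the median ratio. Of 6 fibroblast markers, 5 were called lower, against 58.5% of all tested genes, and Thy1 was not tested. Each of the 5 was lower at least 2-fold, against 7.06% of all tested genes. The fibroblast markers summed to 1007 to 1138 TPM with rGST and 75.2 to 85.1 TPM with rSLURP1. Dcn fell from 580.7 ± 58.2 to 5.46 ± 0.379 TPM and Lum from 176.7 ± 15.7 to 0.907 ± 0.284 TPM (SD, n = 3 each). Their ratios of mean TPM, 106.4 and 194.9, were above the largest ratio of the members, 57.2 for Ifit3. Col1a1, Pdgfrb and Pdgfra were 26.9-fold, 5.49-fold and 3.66-fold lower. The part of the fibroblast markers in the result was not tested.

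Because most genes had a lower TPM with rSLURP1, the calls were also made with this median-ratio scaling, which moved the median log2 fold change of all tested genes from -0.33 to 0.01. With this scaling 33 of the 36 members were called lower, against 24.6% of all tested genes, and 2 were called higher, against 26.6%. The median of the members was then -1.66. The members whose call changed were Ifitm2, which became higher, and Ifitm3, which was no longer called. The remaining 34 kept their call, and the size of each decrease is given below on the deposited TPM.

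**Figure D2:**
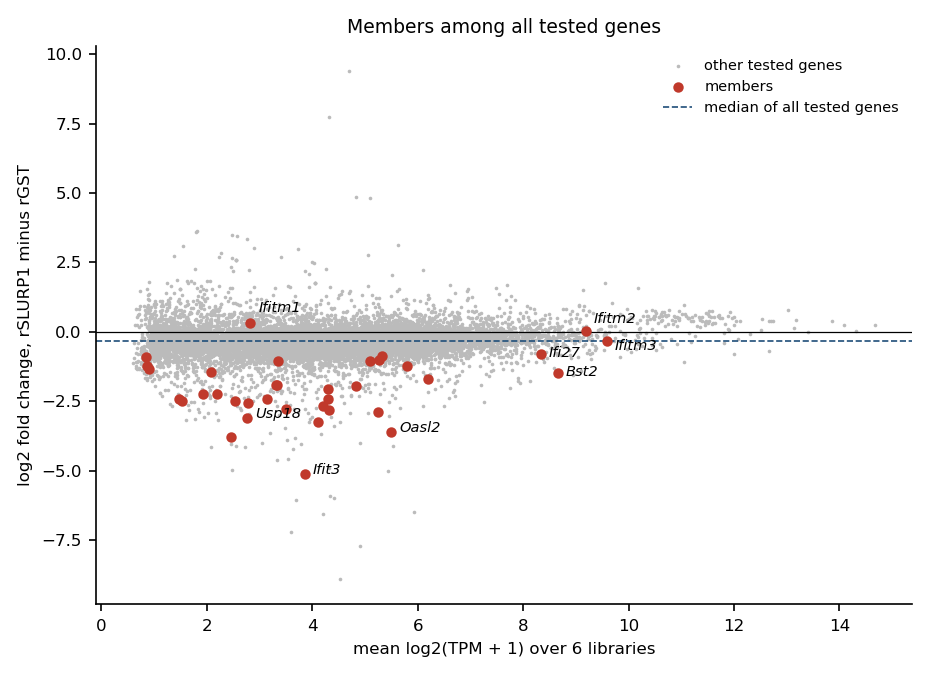
Log2 fold change (rSLURP1 minus rGST) against mean log2(TPM + 1) over the 6 libraries for all 12301 tested genes, with the 36 tested members in red and the median of all genes (-0.33) dashed. Members lie below the dashed line over most of the range of expression, among them Ifit3 at -5.12, Bst2 at -1.47 and Ifi27 at -0.81. In contrast, Ifitm3, Ifitm2 and Ifitm1 lie on it or above it.

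The promoters of several members carry letters of the response element, and these stretches are shown because this element is the one that complexes with IRF9 bind. RefSeq promoters on GRCm38.p6, which run from 250 bases before to 50 bases after the start site, were matched by symbol for 27 of the 37 genes (32 promoters). The core searched was TTTC followed by any 2 bases and TTTC again, on both strands (GAAA, any 2 bases, GAAA on the other), with overlapping matches counted. It was found for 13 of these 27 genes (48.1%). Among the 27025 genes with such a promoter it was found in 3.99%, and 2 or more matches were found for 8 of the 27 members and in 0.27% of all genes. By promoter of the same length, the share was 40.6% of the 32 member promoters and 3.44% of all 32851. Dhx58, Ifi27, Mx1, Mx2, Oas2, Parp14, Parp9, Rtp4, Usp18 and Zbp1 had no entry in the promoter table. The match is a description of letters and not evidence of binding.

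The 10 genes with a match wholly before the start site are printed 5′ to 3′ on the strand of the gene, with the core in capitals and 15 bases on either side, or fewer where the start site is closer. Overlapping cores run into 1 stretch of capitals.
Ifit3 (chr19:34583358-34583431, plus strand): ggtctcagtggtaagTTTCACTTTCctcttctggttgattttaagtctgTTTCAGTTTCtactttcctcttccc
Ifit3b (chr19:34607754-34607827, plus strand): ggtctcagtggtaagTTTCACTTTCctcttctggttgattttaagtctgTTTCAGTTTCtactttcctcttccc
Ifit1 (chr19:34640770-34640828, plus strand): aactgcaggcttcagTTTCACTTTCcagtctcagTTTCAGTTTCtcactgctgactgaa
Oas1a (chr5:120907526-120907560, minus strand): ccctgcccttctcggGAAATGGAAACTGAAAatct
Oas1g (chr5:120887614-120887646, minus strand): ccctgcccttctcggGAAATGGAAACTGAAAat
Oas3 (chr5:120777710-120777749, minus strand): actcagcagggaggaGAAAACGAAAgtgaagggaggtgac
Isg15 (chr4:156200860-156200911, minus strand): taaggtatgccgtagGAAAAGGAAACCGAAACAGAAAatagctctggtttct
Bst2 (chr8:71537572-71537617, minus strand): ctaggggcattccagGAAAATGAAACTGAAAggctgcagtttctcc
Rsad2 (chr12:26456548-26456587, minus strand): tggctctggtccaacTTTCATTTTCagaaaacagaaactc
Ifitm2 (chr7:140955983-140956022, minus strand): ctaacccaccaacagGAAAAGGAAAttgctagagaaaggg

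The stretches of Ifit3 and Ifit3b are identical letter for letter, and those of Oas1a and Oas1g differ only in where the start site ends them. Isg15 has 3 overlapping cores, and Ifitm2 has a single core although its deposited TPM did not differ detectably between treatments. With median-ratio scaling Ifitm2 was called higher. In Ddx58, Ifih1 and Ifitm3 the matches lay after the start site and are not printed. The median log2 fold change was -2.05 for the 13 genes with a match and -1.28 for the 14 with a promoter and no match. Among the latter, Ifit2 (-2.41), Oasl2 (-3.61) and Irf7 (-2.66) were lower without these letters in the window.

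**Figure D3:**
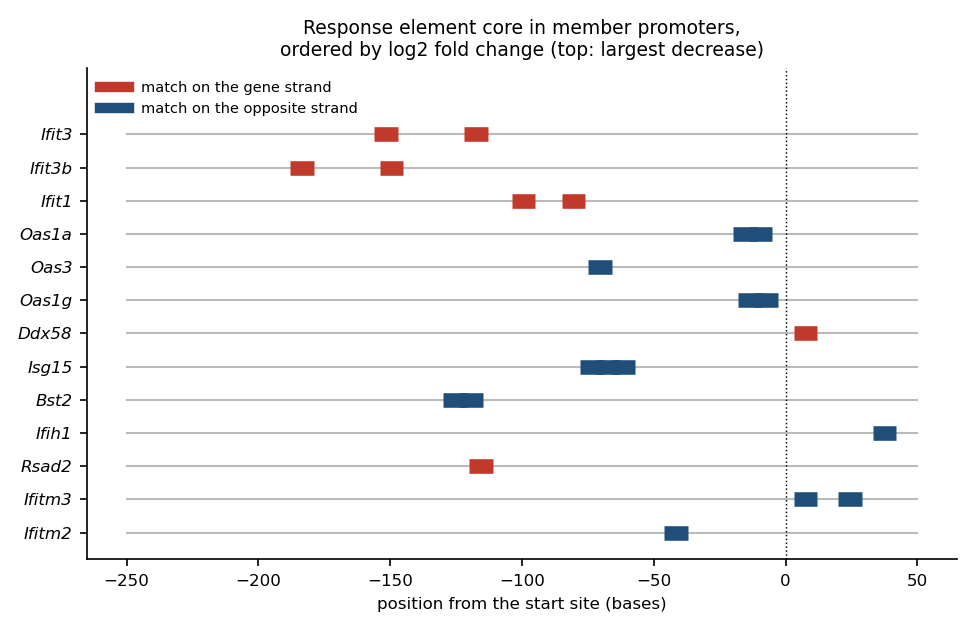
Position of each match to the response element core in the 300-base promoters of the 13 members that have one, in bases from the start site (dotted line), with genes ordered by log2 fold change from the largest decrease at the top. Matches on the gene strand (red) and on the opposite strand (blue) lie before the start site in 10 genes and after it in Ddx58, Ifih1 and Ifitm3.

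The Ifit family, whose proteins bind viral RNA and halt its translation, held the pair of largest log2 fold changes, those of Ifit3 and Ifit3b. Its 4 genes lie in a row on chromosome 19 of GRCm38 (34550694 to 34650009). All 4 were called lower at least 2-fold (7.06% of all tested genes), with log2 fold changes from -5.12 to -2.41. Of these, Ifit3b passed the filter only through its rGST values. Ifit3 (ENSMUSG00000074896.3) had 94.3, 92.4 and 68.8 TPM in rGST libraries 1 to 3 and 1.79, 1.73 and 0.95 TPM in the rSLURP1 libraries. The groups were far apart, and the ratio of the means was 57.2 (-5.12 ± 0.174 SE on the log2 scale, limma-adjusted p = 7.75e-07). Ifit3b, its near-identical neighbor, had 24.6, 19.7 and 15.3 TPM with rGST and 0.56, 0.50 and 0.40 TPM with rSLURP1. Of the 50-base windows in the longest Ifit3 transcript, 51.2% also occur in Ifit3b, so reads may have been divided wrongly between the pair, although both genes were low in every rSLURP1 library. Ifit1, which recognizes the 5′ end of foreign RNA, had 59.1, 57.2 and 41.9 TPM with rGST and 4.70, 5.18 and 3.86 TPM with rSLURP1. It was 11.5-fold lower (-3.26 ± 0.147 SE on the log2 scale, limma-adjusted p = 2.83e-06). Ifit2 was the least changed of the family, from 44.5 ± 5.18 TPM to 7.58 ± 0.875 TPM (SD, n = 3 each), 5.87-fold lower.

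The oligoadenylate synthetases make a second messenger on contact with double-stranded RNA, which leads to the breakdown of RNA. All 6 genes lie on chromosome 5 in 2 groups, Oasl2 with Oasl1 (114896936 to 114937915) and Oas2, Oas3, Oas1g and Oas1a (120730333 to 120907521). All 6 were called lower at least 2-fold (7.06% of all tested genes), but Oas1g and Oas2 passed the filter only through their rGST values. Oasl2, an oligoadenylate synthetase-like gene, had 171.2, 174.7 and 129.3 TPM with rGST and 13.5, 11.4 and 11.1 TPM with rSLURP1. The lowest rGST library was far above the highest rSLURP1 library, and the ratio of the means was 13.2 (-3.61 ± 0.125 SE on the log2 scale, limma-adjusted p = 8.22e-07). Oasl1, which in mouse holds back the translation of Irf7, changed least, with 12.9, 17.8 and 10.95 TPM with rGST and 4.37, 8.68 and 5.85 TPM with rSLURP1. On the log2 scale Oasl1 changed by -1.04 ± 0.240 (SE, limma-adjusted p = 0.00594), and with quantile normalization it was -0.65 (adjusted p = 0.0545). Within the family, the ratio of the means ranged from 2.2 for Oasl1 to 27.8 for Oas2. Oas2 went from 5.64 ± 1.80 to 0.203 ± 0.0351 TPM and Oas3 from 9.08 ± 1.97 to 1.11 ± 0.0907 TPM (SD, n = 3 each). Oas1a and Oas1g, which share 57.6% of the 50-base windows of the longest Oas1a transcript, were 6.82-fold and 9.82-fold lower, and their split of reads is uncertain.

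The 4 sensors of foreign nucleic acid and the editing enzyme Adar were lower as well, each at least 2-fold (7.06% of all tested genes). Zbp1, which detects Z-form nucleic acid and can trigger necroptosis, had 28.0, 31.3 and 27.0 TPM with rGST and 1.82, 3.90 and 4.73 TPM with rSLURP1. The ratio of the means was 8.25, and the coefficient of variation of Zbp1 among the rSLURP1 libraries was 43.0%, above the members' median of 15.5% (-2.79 ± 0.241 SE on the log2 scale, limma-adjusted p = 4.89e-05). Among the RIG-I-like helicases, Dhx58 (LGP2) fell most, from 15.7 ± 1.85 to 1.82 ± 0.312 TPM (SD, n = 3 each). Ddx58 (RIG-I) fell from 39.3 ± 5.74 to 8.74 ± 1.59 TPM and Ifih1 (MDA5) from 5.98 ± 0.577 to 1.53 ± 0.0569 TPM (SD, n = 3 each). Adar, the enzyme that edits adenosine to inosine and keeps self RNA from these sensors, was 2.39-fold lower, with a log2 fold change of -1.24.

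ISG15 is a ubiquitin-like protein that is joined to other proteins. The genes for it and for related modifiers were called lower in 7 of 7 cases (58.5% of all tested genes). Of these, 6 were lower at least 2-fold (7.06% of all tested genes). Isg15 had 143.6, 131.8 and 119.5 TPM with rGST and 39.0, 47.2 and 34.9 TPM with rSLURP1. All rSLURP1 libraries were below all rGST libraries, and the log2 fold change was -1.69 ± 0.113 (SE, limma-adjusted p = 1.49e-05). Usp18, the protease that removes ISG15 and also damps the interferon receptor, had 19.7, 21.5 and 15.9 TPM with rGST and 1.33, 1.72 and 0.92 TPM with rSLURP1. It was 14.4-fold lower (-3.11 ± 0.163 SE on the log2 scale, limma-adjusted p = 5.15e-06), the largest ratio of this group. Herc6, the ligase that attaches ISG15 in mouse, was 4.43-fold lower, and Trim25, a ubiquitin ligase that activates RIG-I, was 1.88-fold lower, which is under the 2-fold threshold. Parp14, Dtx3l and Parp9, which attach ADP-ribose or ubiquitin, lie side by side on chromosome 16 (35832874 to 35972605) and were 8.73-fold, 4.40-fold and 4.10-fold lower. Dtx3l and Parp9 overlap at their 5′ ends on opposite strands, and whether the counting used strand is not stated, so their reads may be mixed there.

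Restriction factors at membranes and the Mx GTPases were split. Bst2 (tetherin, chromosome 8, 71534255 to 71537456), which holds budding virus at the cell surface, had 765.1, 662.9 and 605.4 TPM with rGST and 228.3, 262.0 and 237.9 TPM with rSLURP1. It was among the most abundant members and 2.79-fold lower (-1.47 ± 0.0889 SE on the log2 scale, limma-adjusted p = 9.78e-06). Mx2 fell from 5.88 ± 1.05 to 0.227 ± 0.0929 TPM (SD, n = 3 each), a 26.0-fold difference between low levels, and is annotated as a polymorphic pseudogene in GENCODE M21. Mx1, a GTPase against influenza virus, did not pass the filter, with 0.44 to 1.24 TPM in the rGST libraries and 0.05 to 0.12 TPM in the rSLURP1 libraries. Its groups did not overlap either, and without a filter its log2 fold change was -0.75 (adjusted p = 0.0157 in limma).

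The 3 Ifitm genes, which encode small membrane proteins that block virus entry and stand together on chromosome 7 (140954837 to 141010770), moved least or in the opposite direction. Ifitm3 had 886.9, 853.0 and 845.5 TPM with rGST and 640.0, 720.8 and 720.8 TPM with rSLURP1. Its change on the log2 scale, -0.31 ± 0.0531 (SE, limma-adjusted p = 0.00135), was close to the median of all tested genes, and with median-ratio scaling it was 0.048 (adjusted p = 0.431). Ifitm2 had 572.7, 581.5 and 587.4 TPM with rGST and 569.2, 590.8 and 611.8 TPM with rSLURP1. These groups overlapped, with a log2 fold change of 0.02 (95% interval -0.063 to 0.11, adjusted p = 0.587 in limma), and median-ratio scaling gave 0.39 (adjusted p = 1.27e-04). Ifitm1 was far less abundant, with 5.57, 6.14 and 4.46 TPM with rGST and 6.52, 6.93 and 7.38 TPM with rSLURP1. The rSLURP1 libraries of Ifitm1 were all above the rGST libraries by a small margin (0.32 ± 0.121 SE on the log2 scale, limma-adjusted p = 0.0467). That call was lost in 5 of the 6 fits that left out a library, with only the fit without rGST replicate 2 keeping it. It was also lost with the replicate number as a block (adjusted p = 0.0774) and without a filter (adjusted p = 0.132). The log2 fold change of Ifitm1 was larger with median-ratio scaling (0.63, adjusted p = 0.00366) and with quantile normalization (0.72, adjusted p = 0.00237). In Ifitm2, 48.5% of the 50-base windows also occur in transcripts of other genes, so its level is uncertain.

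**Figure D4:**
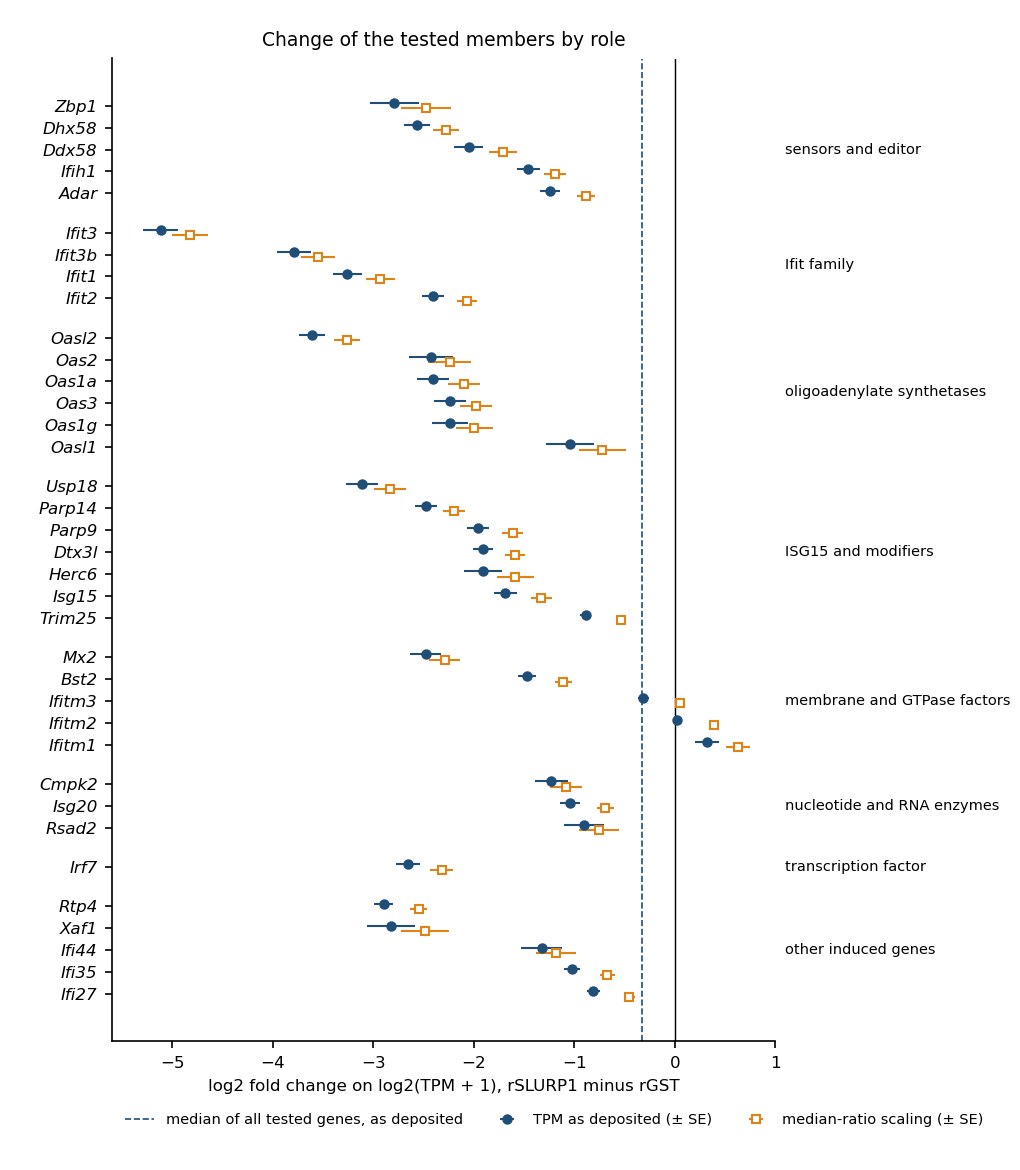
Log2 fold change (rSLURP1 minus rGST, on log2(TPM + 1)) with its standard error for the 36 tested members, grouped by role, on the deposited TPM (filled circles) and with median-ratio scaling (open squares). Ifit3 is farthest left at -5.12, the 3 Ifitm genes lie near or right of the dashed median of all genes, and scaling moves every gene to the right and only Ifitm3 crosses 0.

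The 3 enzymes that act on nucleotides and RNA were called lower (58.5% of all tested genes), but Rsad2 and Cmpk2 passed the filter only through their rGST values. Isg20, an exonuclease for single-stranded RNA, was 2.10-fold lower, from 47.9 ± 2.44 to 22.9 ± 3.16 TPM (SD, n = 3 each). Rsad2 (viperin), which makes a chain-terminating nucleotide, and its neighbor Cmpk2, a nucleotide kinase, lie head to head on chromosome 12 and were expressed at low levels. Rsad2 had 1.45 ± 0.230 TPM with rGST and 0.327 ± 0.273 TPM with rSLURP1, and Cmpk2 had 1.79 ± 0.297 and 0.190 ± 0.0700 TPM (SD, n = 3 each). On the log2(TPM + 1) scale their changes of -0.90 and -1.23 understate these ratios of 4.45 and 9.44.

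Irf7, the transcription factor that drives interferon-alpha genes, had 49.3, 45.8 and 41.1 TPM with rGST and 5.23, 6.94 and 7.0 TPM with rSLURP1, with no overlap (-2.66 ± 0.117 SE on the log2 scale, limma-adjusted p = 2.51e-06). The 5 other induced genes were called lower (58.5% of all tested genes), of which Ifi44 passed the filter only through its rGST values. Rtp4, a chaperone for receptors that also restricts viral RNA, had 111.3, 105.2 and 92.9 TPM with rGST and 12.5, 14.6 and 11.8 TPM with rSLURP1 (-2.90 ± 0.0940 SE on the log2 scale, limma-adjusted p = 6.11e-07). Xaf1, a partner of the apoptosis inhibitor XIAP, had 60.2, 52.9 and 43.8 TPM with rGST and 7.16, 9.09 and 4.07 TPM with rSLURP1 (-2.82 ± 0.242 SE on the log2 scale, limma-adjusted p = 4.65e-05). In both genes every rSLURP1 library was below every rGST library. Ifi27 was abundant and changed less, with 444.1, 414.9 and 422.1 TPM with rGST and 220.4, 261.8 and 247.5 TPM with rSLURP1, a log2 fold change of -0.81. Ifi35 was 2.08-fold and Ifi44 11.3-fold lower, the latter from only 1.99 ± 0.627 TPM with rGST (SD, n = 3).

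Libraries of 1 treatment also differed together in these genes. Among the rGST libraries, replicate 3 had the lowest value in 31 of the 37 genes, whereas it was lowest in 36.4% of all tested genes. Its summed TPM over the 37 genes was 3535, against 3971 and 3794 in replicates 1 and 2. With rSLURP1 the sums were 1903, 2129 and 2073 TPM, and without the 3 Ifitm genes they were 687.0 to 810.8 TPM against 2098 to 2506 TPM with rGST. The rSLURP1 replicate 2 was highest of its group in 23 of the 37 genes and in 50.5% of all tested genes. The lowest rGST sum was thus well above the highest rSLURP1 sum. Without rGST replicate 3, 27 of the 29 members that still passed the filter were called lower, against 54.1% of all genes in that fit.

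The pathway around the members was read from 42 further genes for interferon signaling, nucleic acid sensing and the partners of the members. Of the 35 that were tested, 32 were called lower and 2 higher on the deposited TPM, against 58.5% and 8.66% of all tested genes. With median-ratio scaling 18 were lower and 3 higher, against 24.6% and 26.6%. Their median log2 fold change was -0.53 as deposited and -0.18 with median-ratio scaling, against -2.01 and -1.66 for the members. Among signaling genes, Irf9, Stat2 and Irf1, whose products act at promoters, were lower at least 2-fold. Irf9 fell from 56.6 ± 5.88 to 17.9 ± 0.365 TPM (log2 fold change -1.60) and Stat2 from 26.3 ± 2.94 to 8.51 ± 0.872 TPM (-1.52; SD, n = 3 each). Irf1, a factor induced by interferon-gamma, fell from 114.7 ± 5.96 to 33.0 ± 1.54 TPM (log2 fold change -1.76). The adjusted p-value of these 3 genes was 1.77e-05 or lower in limma. The factors Irf3 and Irf2 changed less, with log2 fold changes of -0.72 and -0.44 as deposited. With median-ratio scaling these were -0.37 and -0.094, and Irf2 was no longer called.

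The genes of the type I interferon receptor were close to the median of all genes. Ifnar1 had 46.9, 46.0 and 48.6 TPM with rGST and 36.4, 36.2 and 36.5 TPM with rSLURP1, a log2 fold change of -0.36 that was -0.01 with median-ratio scaling (adjusted p = 0.863 in limma). Ifnar2 had a log2 fold change of -0.27 as deposited and 0.090 with median-ratio scaling (adjusted p = 0.302). Ifngr1, a chain of the interferon-gamma receptor, was lower under both, with a log2 fold change of -0.70 as deposited and -0.35 with median-ratio scaling (adjusted p = 0.0036 in limma). Messages for interferons themselves were at 0 or low. Ifng, Ifna4, Ifnk and Ifnl3 were listed at 0 in all 6 libraries, Ifnb1 was listed at 0.34 TPM in rGST replicate 2 and at 0 elsewhere, and Ifne ranged from 0.20 to 1.48 TPM with rGST and from 0.12 to 0.34 TPM with rSLURP1. At unknown depth, low amounts cannot be judged.

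Genes that work with the members were lower as well. Uba7, the enzyme that activates ISG15, was 10.0-fold lower (log2 fold change -2.69). Eif2ak2 (PKR), which stops translation on double-stranded RNA, was 2.36-fold lower (-1.20). In the sensing group, Tlr3, Ikbke and Tbk1 had log2 fold changes of -1.30, -0.89 and -0.72. The adaptor Ticam1 (0.41, adjusted p = 0.00532 in limma) and the kinase Riok3 (0.25, adjusted p = 0.0349) were the pair called higher, named after their values were seen. The call for Riok3 was lost with the replicate number as a block (adjusted p = 0.0566) and in 4 of the 6 fits without a library.

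**Figure D5:**
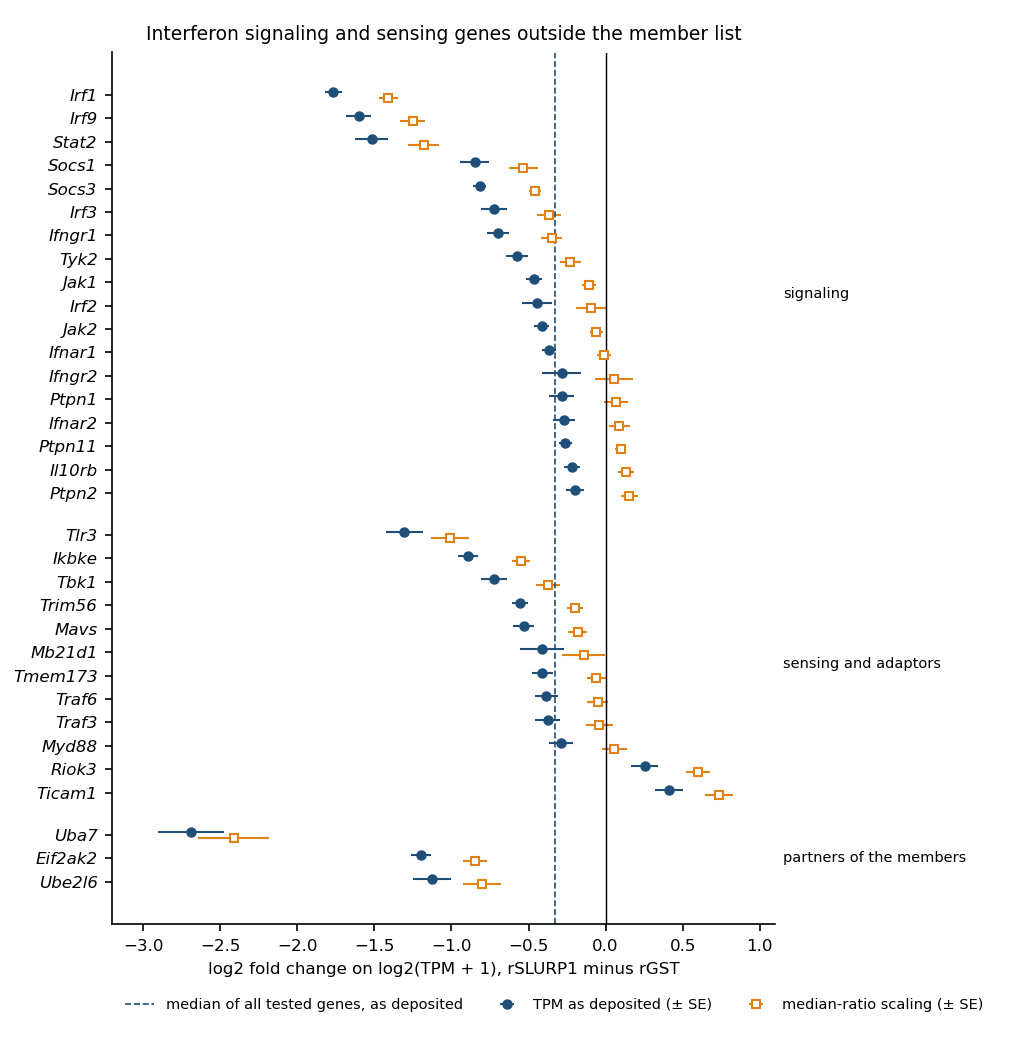
Log2 fold change (rSLURP1 minus rGST, on log2(TPM + 1)) with its standard error for tested genes of interferon signaling, sensing and partners, on the deposited TPM (filled circles) and with median-ratio scaling (open squares). Irf1, Irf9, Stat2, Tlr3, Uba7 and Eif2ak2 lie left of -1, Ifnar1 and Ifnar2 lie near the dashed median of all genes, and Ifngr1 lies left of it at -0.70.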

How the data were processed

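RNAseq of D2A1 spheroids was read from 6 libraries, 3 with rGST and 3 with rSLURP1, grouped by the sample titles. Reads went through Cutadapt, STAR 2.5.2b (mm10) and RSEM, and the authors deposited TPM per gene, with 1 column per library. The submitters' processing notes give Cutadapt 1.18 and RSEM 1.3.3, and the study's methods name other versions of both. The labels name a TruSeq mRNA kit, the methods Smart-seq2. Nothing states that replicates were separate cultures, so p-values measure the spread between libraries, which may be technical.

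Log2(TPM + 1) was fitted for the 12301 genes that reached 1 TPM in 3 or more libraries. The fit used limma 3.58.1 (R 4.3.3, lmFit, eBayes with trend), with calls at an adjusted p no higher than 0.05. It followed a check on simulated data, which held no shift across most genes, so that check does not cover such a shift. TPM is not a count, so the count test named in the study's methods was not used. For a single gene in 3 libraries against 3, exact permutation gives a two-sided p of 0.1 at the smallest. Standard deviations are over 3 libraries. Gene positions are from GENCODE M21 (GRCm38), and promoters from RefSeq on GRCm38.p6. Shared sequence was measured in 50-base windows of the longest GENCODE M21 transcript. Nothing states that replicate numbers pair the libraries. Deviations correlated at -0.061 to -0.034 within a number and at 0.0075 to 0.048 between numbers, which cannot exclude pairing.

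The members and gene lists were chosen with earlier results of these data known. All members are named. Values in every library are given for the 8 largest changes, the 5 most abundant members, and those called higher, not called or changed in call by scaling (for the untested Mx1, as a range), and also for Irf7 and Oasl1. Other pathway genes are named where they are among the 3 largest changes of their list, or are Stat2, Irf9, Ifnar1, Ifnar2 or Ifnb1, and some genes of these lists are counted but not reported here by name. Other genes were named after their values were seen. Alternatives were a pseudocount of 0.1, no filter (a TPM above 0 in any library), a filter in all 6 libraries, median-ratio scaling, quantile normalization, no trend, a replicate block, that block with median-ratio scaling, and leaving out each library.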

Additional observations from a re-analysis of the deposited data

How the results depend on the processing

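The number of antiviral genes called lower was 34 on the deposited TPM and ranged from 25 (filter in all 6 libraries, 27 members tested) to 35 (no filter, 37 tested) over the alternatives. Leaving out a library gave 27 to 34, and the lower end came without an rGST library, where 29 members passed the filter. The count lower at least 2-fold was 30 as deposited, 22 with the filter in all 6 libraries and 25 under quantile normalization. It was 26 under median-ratio scaling and 23 to 31 when leaving out a library. Of all tested genes, 869 of 12301 were lower at least 2-fold as deposited and 665 of 11199 with the filter in all 6 libraries. Quantile normalization gave 416 of 12301 and median-ratio scaling 460 of 12301. Leaving out a library gave 754 to 934 of 11943 to 12176. The count of antiviral genes called higher was 1 as deposited, and 0 without a filter and with the replicate block. It was 2 with median-ratio scaling with or without the replicate block, and 0 to 1 when leaving out a library. The replicate block left 34 called lower and changed no member's call other than that of Ifitm1. Among signaling and sensing genes, the 32 called lower became 18 with median-ratio scaling (with or without the block) and 16 with quantile normalization. The 2 called higher became 1 without a filter, 1 with the replicate block, 4 with quantile normalization and 1 to 2 when leaving out a library. Under quantile normalization, 2905 of all 12301 tested genes were called lower and 3111 higher. Median-ratio scaling and quantile normalization moved the median log2 fold change of all tested genes from -0.33 to near 0 (0.01 and 0.02). The cause of the other shifts was not tested.

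Ifitm3 reversed from -0.31 to 0.048 with median-ratio scaling (with or without the block), and Ifitm2 ranged from -0.0015 (without rSLURP1 replicate 3) to 0.050 when leaving out a library. Ifnar2 reversed to 0.090 with median-ratio scaling (with or without the block) and to 0.016 with quantile normalization, and Ifngr2, which was not called as deposited, reversed to 0.053 and 0.11 in the same settings. With the replicate block Ifngr2 was called lower (adjusted p = 0.0456) and Riok3 lost its call. Of the single-gene values of the members under these settings, 461 had the direction and call given in the text. A further 8 kept the direction but lost the call, 2 gained one and 3 changed sign. Among the 3, Ifitm3 also lost its call in both median-ratio settings. Since TPM keeps no depth, the counting error of members under 1 TPM could not be assessed.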

Other observations

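The letters of the response element core were also followed outside the list. Of 8342 tested genes that are not members and have a RefSeq promoter, 293 held the core in 1 or more of their promoters, and 14.7% of these were lower at least 2-fold with rSLURP1 (limma-adjusted p no higher than 0.05), against 6.19% of the 8049 without it. The median log2 fold changes of these groups, -0.38 and -0.33, were close. Of the 25 with 2 or more matches in a promoter, 9 were lower at least 2-fold (36.0%), and their median log2 fold change was -0.82. Those 9 included Gbp3 (log2 fold change -3.06), Irgm1 (-2.31), Ddx60 (-2.25), Trim21 (-1.77) and Lgals9 (-1.53), named after their values were seen. Gbp3 and Irgm1 encode interferon-induced GTPases, and Apol9a (-2.94) and Apol9b (-2.93) are close paralogs whose reads may be shared. These shares are descriptions, with no test.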
